A study of Mus musculus with 30 samples.

Results

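Mitochondrial ribosomes are the translation machines inside mitochondria. They make the few proteins encoded by mitochondrial DNA, all of which are membrane subunits of the respiratory chain and ATP synthase. Their RNAs are transcribed in the mitochondrion, but every one of their proteins is encoded in the nucleus, made in the cytosol and imported, so that mRNAs scattered over the genome have to supply one particle. The proteins fall into the large subunit, which forms peptide bonds, and the small subunit, which holds the mRNA and reads the codons. Some have a counterpart in bacterial ribosomes and others are found only in mitochondria.

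The mRNAs of this machine were examined in mouse spermatogonial stem cell (SSC) lines, the cultured counterpart of the stem cells that sustain sperm production. Members were all gene symbols that begin with Mrpl or Mrps and a digit, without pseudogene symbols. There were 75 of them among 14558 genes in the tables used: 49 of the large subunit, 25 of the small subunit and Mrps36, which despite its name sits with the 2-oxoglutarate dehydrogenase complex. Of the 75, 70 had an mRNA level among 13904 genes and 48 had an mRNA half-life among 5806 transcripts, and 43 had both. Mrpl11, Mrpl16, Mrpl28, Mrpl43 and Mrps6 had a half-life only, and 27 members had a level only. The members lay on 17 chromosomes in the GENCODE M21 annotation of build GRCm38.

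The study asked how NANOS2, an RNA-binding protein of undifferentiated spermatogonia, acts on mRNAs. The first line, line 4, was Nanos2TAG/+ and carried 1 tagged allele and 1 untagged allele. The second, line 5, was Nanos2TAG/TAG and carried the tagged allele only. The tag, which includes V5, Myc, His and EGFP sequences, is joined to the N-terminus of NANOS2 and is read from the gene's own locus. Both lines were derived from postnatal day 7 testes of mice of mixed C57BL/6 and DBA/2J background and grown on embryonic fibroblast feeders, and per the labels feeders were removed before RNA extraction. Neither line lacked a Nanos2 allele and neither was free of the tag. Levels came from 1 library of ribosomal RNA-depleted total RNA per line, extracted per the labels with QIAzol for TAG/+ and Trizol for TAG/TAG, and are given as FPKM, fragments per kilobase of transcript, scaled to library size. Half-lives came from SLAM-seq, in which RNA labelled with 4-thiouridine is chased and the loss of labelled 3′ end reads is followed. The SLAM-seq set had 6 chase times from 0 to 1440 min, with 2 technical replicates per time and line, from which the authors fitted 1 half-life per transcript and line without an error. Each genotype was thus 1 line with 1 level and 1 half-life per gene, so there was no replicate spread, no test between lines was possible, and the effects of genotype, of the line itself and of the reagent used cannot be told apart.

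Read numbers recovered from the FPKM values set the precision of a level: 27 to 3475 reads lay behind a member's value in a library, out of 10978117 recovered reads in the TAG/+ library and 11656450 in the TAG/TAG library. The 95% intervals given for levels and ratios cover counting error only. The 10 undifferentiated spermatogonia markers in the table were found in both libraries, among them Nanos2 at 27.5 FPKM in TAG/+ and 23.8 FPKM in TAG/TAG and Sall4, a germ cell transcription factor, at 214 and 192 FPKM. Of these 10, 3 (30%) were over 1.5-fold higher in TAG/TAG, against 22.8% of all genes, and 0 over 1.5-fold lower, against 19.4%. The 3 were Etv5 at 45.98 and 178 FPKM, Ret at 73.2 and 181 FPKM, and Gfra1 at 56.2 and 111 FPKM. As a set the 10 had no common direction, with 6 lower and 4 higher in TAG/TAG and a median log2 difference of -0.10. Of 5 measured markers of differentiating spermatogonia, 4 (80%) were lower in TAG/TAG, against 49.5% of all genes, with a median log2 difference of -0.40. Fibroblast markers were present too, although by the study's methods RNA came from sorted cells, gated away from residual feeder cells. The 9 measured were Col1a1, Col1a2, Col3a1, Col5a1, Col6a3, Fn1, Postn, Dcn and Thy1. None was at 0, and 7 of 9 were higher in TAG/TAG, against 7028 of all 13904 genes. The median log2 difference of the 9 was 0.45. Their summed level was 339.7 FPKM in TAG/+ and 421 FPKM in TAG/TAG, of which Fn1 alone had 254 and 280 FPKM. Whether the spermatogonia also express genes of this list, such as Thy1, was not tested, so these values are no measure of feeder RNA. The part of these marker differences in the results below was not tested. In bulk samples such as these, fewer cells of a type and less RNA per cell cannot be told apart.

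Some short sequence motifs were more frequent in promoters of the members than in promoters of all genes, but none was common to the whole set. RefSeq promoter windows of 300 bases, from 250 before to 50 after a start site in build GRCm38.p6, were matched for 66 of 75 members by symbol, with 72 windows in all. They were searched on both strands for the motifs of factors known to act at genes of mitochondrial function. CCGGAAG, the core of ETS family sites such as that of GABPA, was in 36.1% of the members' windows, against 8.86% of all 32851 windows and 19.7% of windows of genes with at least 5 FPKM in both lines. GCGCANGCG, the NRF1 motif, was in 22.2%, against 6.25% and 15.5%. AAGATGG, the YY1 motif, was in 16.7%, against 6.34% and 7.63%. GGGCGG, the Sp1 motif, was in 51.4% of the members' windows, against 35.7% of all windows and 66.4% of those of genes with at least 5 FPKM. CCAAT was in 40.3%, against 37.4% and 38.1%, and the CRE, TGACGTCA, was in 1 member window. CACGTG, the E-box, was in 9.72% against 7.15% and 11.4%. ETS, NRF1 or YY1 letters were present in 43 of the 66 members (65.2%), against 21.4% of all 27025 genes with a window and 42.7% of the genes with at least 5 FPKM in both lines. These matches are a description of sequence and not of binding. The following stretches lie outside every annotated exon and are printed 5′ to 3′ on the gene's strand, with the motif in capitals. They belong to members to which the results return below: Mrpl52, at chr14:54426836-54426894 (ETS) and chr14:54426792-54426850 (YY1), Mrpl48 at chr7:100583132-100583190 (ETS), Mrps27 at chr13:99344712-99344770 (ETS), Mrpl12 at chr11:120484531-120484591 (NRF1), Mrpl10 at chr11:97041421-97041481 (NRF1) and Mrpl45 at chr11:97315652-97315712 (NRF1).
Mrpl52 ETS: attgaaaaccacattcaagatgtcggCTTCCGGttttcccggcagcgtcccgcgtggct
Mrpl52 YY1: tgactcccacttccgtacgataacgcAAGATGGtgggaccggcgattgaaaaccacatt
Mrpl48 ETS: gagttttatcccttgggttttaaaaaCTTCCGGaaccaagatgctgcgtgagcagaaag
Mrps27 ETS: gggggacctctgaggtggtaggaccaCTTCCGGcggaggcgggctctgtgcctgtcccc
Mrpl12 NRF1: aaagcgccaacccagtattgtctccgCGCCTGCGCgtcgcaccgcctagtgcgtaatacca
Mrpl10 NRF1: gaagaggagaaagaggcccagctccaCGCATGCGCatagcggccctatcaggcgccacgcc
Mrpl45 NRF1: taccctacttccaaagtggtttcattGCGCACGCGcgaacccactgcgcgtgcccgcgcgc

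Members were well above the typical gene in level. The median member had 38.6 FPKM in TAG/+ and 29.1 FPKM in TAG/TAG, against 10.2 and 10.5 FPKM for all genes. The middle of the members reached from 14.1 to 84.4 FPKM in TAG/+ and from 11.7 to 72.0 FPKM in TAG/TAG (first to last quartile). Although most of these proteins are present in a single copy per particle, the mRNA levels spanned over 100-fold in each line, from 2.603 FPKM for Mrpl46 to 559 FPKM for Mrpl52 in TAG/+ and from 2.81 FPKM for Mrps26 to 337 FPKM for Mrpl38 in TAG/TAG. The order of the members was much the same in both lines, with a Spearman correlation of 0.96 across 70 members, which share their 2 libraries, against 0.93 across all genes. Subunits were close, at a median of 30.5 and 27.2 FPKM for the 45 measured large subunit mRNAs and 39.4 and 29.0 FPKM for the 24 small subunit mRNAs, in TAG/+ and TAG/TAG.

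**Figure D1:**
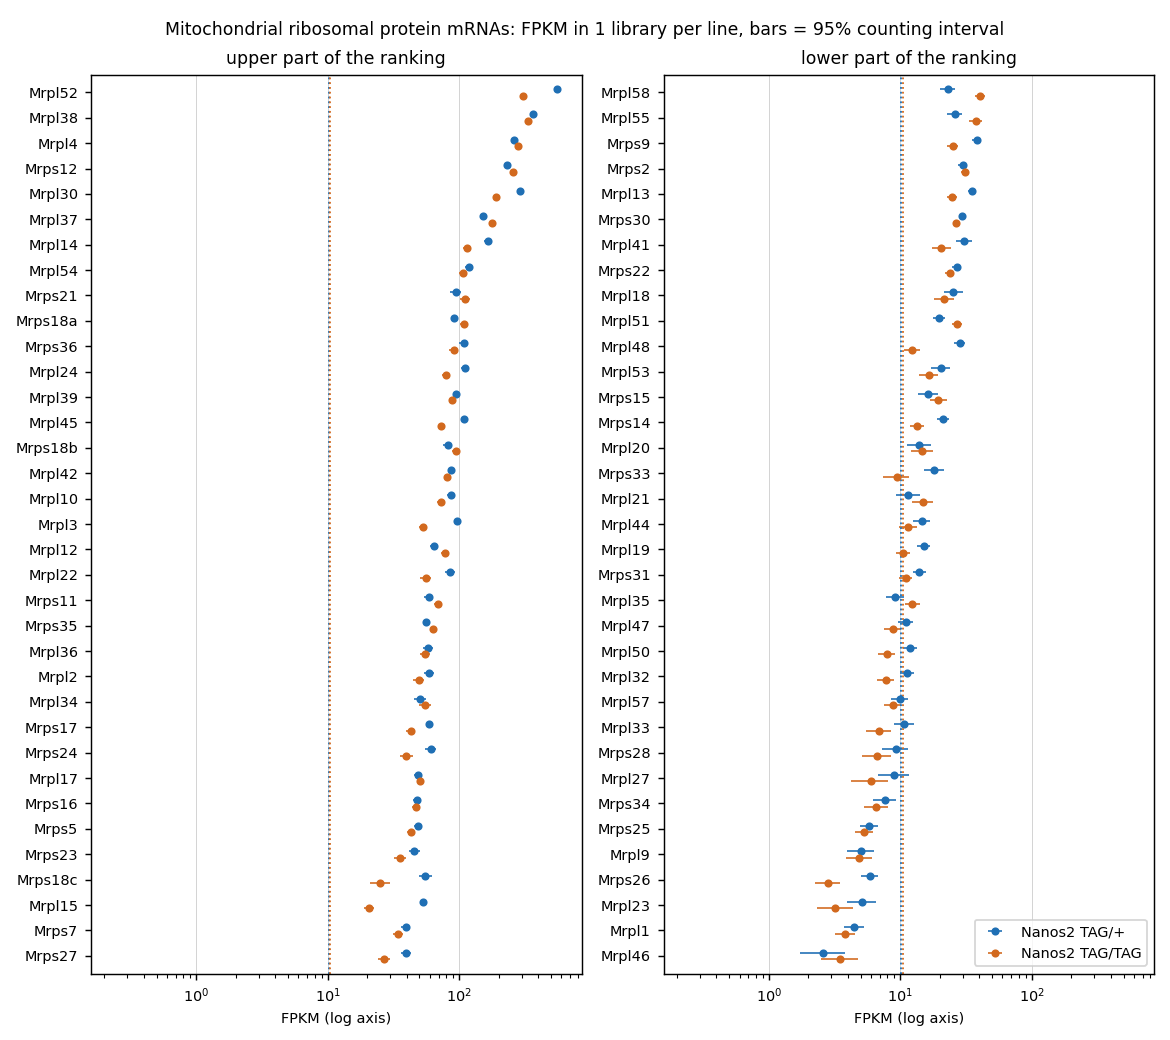
FPKM (log axis) of 70 members in the TAG/+ library (blue) and the TAG/TAG library (orange), ordered by the mean of both lines, with 95% counting intervals as bars and the median of all genes as dotted lines. Mrpl52 stands at the top with 559 and 305 FPKM and Mrpl46 at the bottom with 2.603 and 3.49 FPKM.

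The most abundant member was Mrpl52, a mitochondria-specific protein of the large subunit, at 559 FPKM in TAG/+ (2561 reads, 95% interval 538 to 581) and 305 FPKM in TAG/TAG (1505 reads, 290.0 to 321). Mrpl38, a protein of the central protuberance of the large subunit, followed at 366 and 337 FPKM. Mrpl4, which lines the exit tunnel for new peptides, was at 264 FPKM in TAG/+ and 281 FPKM in TAG/TAG. These mRNAs were high in both lines, and the counting interval of the ratio of TAG/TAG to TAG/+ left out 1 for each of them, at 0.512 to 0.582 for Mrpl52, 0.879 to 0.966 for Mrpl38 and 1.01 to 1.12 for Mrpl4. Mrps12, at the decoding site of the small subunit, was at 232 and 257 FPKM. Mrpl30 was at 290.02 FPKM in TAG/+ and 189.7 FPKM in TAG/TAG.

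The least abundant members were Mrpl46 (2.603 and 3.49 FPKM), Mrpl1 (4.48 and 3.83), Mrpl23 (5.11 and 3.22), Mrps26 (5.84 and 2.81) and Mrpl9 (5.04 and 4.87), in TAG/+ and TAG/TAG. Mrpl1 and Mrpl23 have well known bacterial counterparts, at the L1 stalk and beside the exit tunnel, so low levels were not confined to mitochondria-specific proteins. For Mrpl23 the level may be too low, since reads could be shared with the pseudogene symbol Mrpl23-ps1. That symbol had 481 reads in TAG/+ and 324 in TAG/TAG, against 62 and 42 for Mrpl23, and how such reads were assigned is not known. The 41 measured members with a bacterial counterpart had medians of 48.0 and 34.4 FPKM and the 28 without one had medians of 29.0 and 26.8 FPKM. FPKM depend on the transcript length used. With the length of the principal transcript in place of the mean over a gene's transcripts, the members' medians were 25.6 and 18.8 FPKM. The medians of all genes were not recomputed in this way, so these values cannot be set against those given above for all genes.

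Members of special position were spread over this range. Mrpl12 and Mrpl10, which form the stalk that recruits translation factors, stood at 64.7 and 86.2 FPKM in TAG/+ and 77.8 and 72.9 FPKM in TAG/TAG. Mrpl45, at the contact with the inner membrane, was at 108 FPKM in TAG/+ and 73.4 FPKM in TAG/TAG. The first of these 3 was higher in TAG/TAG and the others were lower, and none of these 3 ratios had a counting interval that reached 1. Mrps30, named for the small subunit but placed in the large, was at 29.6 and 26.7 FPKM. Mrps22 was at 27.01 and 23.8 FPKM, Mrps16 at 48.0 and 47.1 FPKM, and Mrpl44, an RNase III-like protein, at 14.5 and 11.5 FPKM. Mrps36 was at 108 and 91.1 FPKM, but only 56.4% of its 50-base windows were unique in the genome, so copies elsewhere could share its reads.

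The lines differed modestly and mostly in one direction. Of 70 members, 50 had a lower level in TAG/TAG (71.4%, against 49.5% of all genes), and the median log2 difference, TAG/TAG minus TAG/+, was -0.22, against 0.0089 for all genes. All log2 differences of levels are on the log2(FPKM + 0.1) scale. The level was over 1.5-fold lower in TAG/TAG for 14 of 70 members (20%), against a background of 19.4% of all genes. It was over 1.5-fold higher for 1 of 70 (1.43%), against 22.8% of all genes. Among genes with at least 5 FPKM in both lines, 12 of 65 members (18.5%) were over 1.5-fold lower, against 13.7% of such genes. Over 1.5-fold higher was 1 (1.54%), against 12.4%. The share of members past the limit downward was thus close to that of all genes but above that of genes with at least 5 FPKM. The share upward was below both. The differences of these 65 members had an SD of 0.43, against 0.58 for all genes at that level. Among genes whose mean level lay between the members' own quartiles, the median difference was -0.05 for 4522 genes and -0.19 for the 34 members in that range. Of these 34, 8 (23.5%) were over 1.5-fold lower, against 14.3% of the 4522 genes, and 1 (2.94%) was over 1.5-fold higher, against 13.0%.

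**Figure D2:**
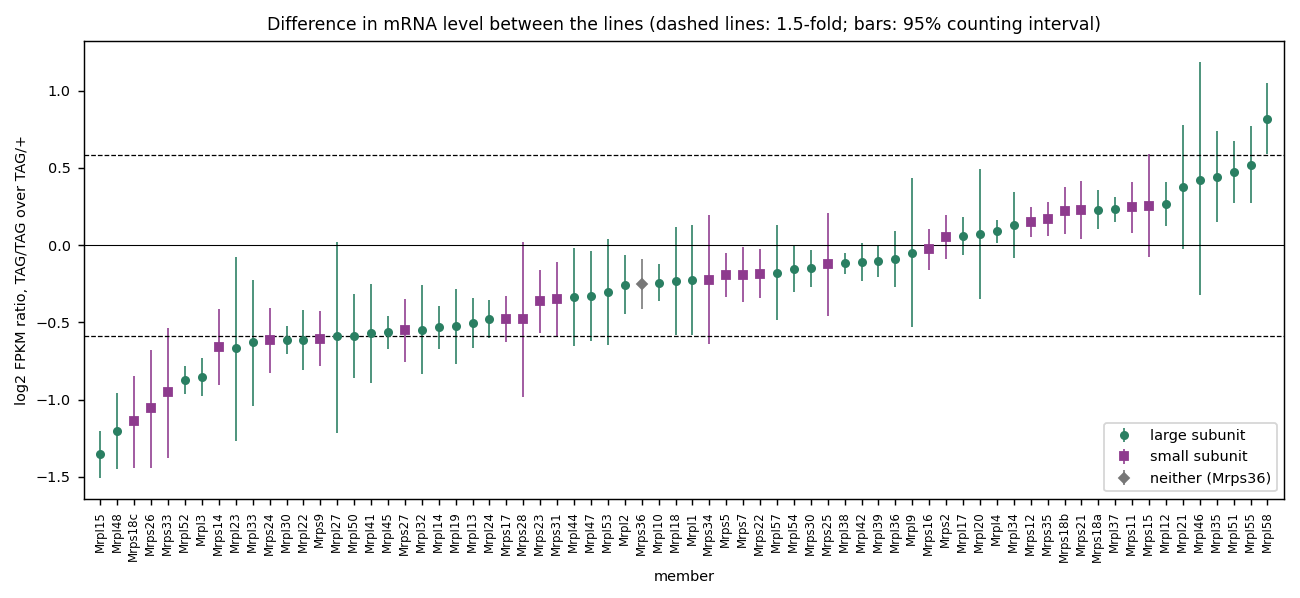
Log2 ratio of FPKM (TAG/TAG over TAG/+) for 70 members in rank order, with the 95% counting interval as bars, symbols by subunit and dashed lines at 1.5-fold. Mrpl15 is at the low end and Mrpl58 is the one member above the upper dashed line.

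Counting error alone did not cover many of these differences. The 95% interval of the ratio lay below 1 for 37 members, above 1 for 13 and included 1 for 20. The background was similar in size but even in direction, with intervals below 1 for 35.2% and above 1 for 35.5% of 11943 genes with at least 50 reads over both libraries. These intervals leave out the variation between cultures and library preparations, which 1 library per line cannot show.

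The lowest ratio was that of Mrpl15, a large subunit protein with a bacterial counterpart, at 53.2 FPKM in TAG/+ (1187 reads) and 20.8 FPKM in TAG/TAG (500 reads), a log2 difference of -1.35. The ratio was 0.391 with an interval of 0.352 to 0.435. Mrpl48, a protein of the central protuberance, had 28.4 FPKM in TAG/+ and 12.4 FPKM in TAG/TAG (log2 difference -1.19). In both the TAG/TAG value was below the TAG/+ value by more than 2-fold, and the whole counting interval lay past the 1.5-fold limit.

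Small subunit mRNAs followed. Mrps18c, the S18 protein of the small subunit, was at 55.4 FPKM in TAG/+ and 25.1 FPKM in TAG/TAG (log2 difference -1.14). Mrps26 was at 5.84 and 2.81 FPKM (-1.03), and Mrps33 at 18.2 and 9.38 FPKM (-0.95). Mrps18c and Mrps33 had 78.8% and 70.1% unique 50-base windows, so part of their reads could come from copies. Mrpl52, the most abundant member, completed the 6 largest differences downward, at -0.87, and Mrpl3, the protein beside the peptidyl transferase centre, came next, at 96.3 FPKM in TAG/+ and 53.2 FPKM in TAG/TAG (-0.85).

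In the other direction differences were smaller. Mrpl58, also known as ICT1, a release factor relative that sits in the large subunit and frees stalled ribosomes, was at 23.0 FPKM in TAG/+ (239 reads) and 40.5 FPKM in TAG/TAG (453 reads). Its log2 difference was 0.81 and its ratio 1.76, with an interval of 1.503 to 2.07. It was the one member over 1.5-fold higher. Mrpl55 was at 26.1 and 37.4 FPKM (log2 difference 0.52), Mrpl51 at 19.6 and 27.2 FPKM (0.47) and Mrpl35 at 9.11 and 12.4 FPKM (0.44). Mrpl46 (0.41) and Mrpl21 (0.37) completed the set of 6, and the intervals of both ratios included 1.

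The S18 paralogs lay on both sides of equal levels. Vertebrate mitochondria have 3 S18 paralogs, of which Mrps18c is the S18 protein of the small subunit, Mrps18b sits elsewhere in the small subunit and Mrps18a in the large. Mrps18a was at 92.2 FPKM in TAG/+ and 108 FPKM in TAG/TAG, with a ratio interval of 1.08 to 1.28. Mrps18b was at 81.8 and 95.4 FPKM, with an interval of 1.05 to 1.30 and 62.2% unique windows. Mrps18c, with an interval of 0.368 to 0.556, lay on the other side of 1.

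Other genes of the same pathway were mostly lower in TAG/TAG as well. Among the 5 mitoribosomal proteins not named Mrpl or Mrps, 4 (80%) were lower in TAG/TAG, against 49.5% of all genes. The median log2 difference of the 5 was -0.30. The lowest was Chchd1, at 15.8 FPKM in TAG/+ and 5.49 FPKM in TAG/TAG, and the highest was Gadd45gip1, at 36.5 and 37.2 FPKM. Of 25 measured assembly factors and rRNA-modifying enzymes, 24 (96%) were lower in TAG/TAG, against 49.5% of all genes, with a median of -0.48. Over 1.5-fold lower were 8 (32%), against 19.4% of all genes, and none was over 1.5-fold higher, against 22.8%. The ends of this list were Mrm1, an rRNA methyltransferase, at 11.3 and 2.08 FPKM, and Mettl15, at 6.10 and 7.97 FPKM.

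Translation factors were less uniform. Of 14, 11 (78.6%) were lower in TAG/TAG, against 49.5% of all genes, with a median of -0.46. Over 1.5-fold lower were 5 (35.7%), against 19.4% of all genes, and 2 (14.3%) were over 1.5-fold higher, against 22.8%. Mtrf1, a release factor relative, was at 3.95 and 0.850 FPKM (82 and 19 reads), whereas Taco1, a translational activator of the Co1 mRNA, was at 1.66 and 5.48 FPKM (25 and 89 reads). Of 4 measured genes of mitochondrial transcription, 3 were higher in TAG/TAG (median log2 difference 0.33), 0 of them over 1.5-fold, against 22.8% of all genes. The other 1 was over 1.5-fold lower, Tefm at 11.96 and 6.36 FPKM, and the highest difference was that of Tfam, which packages mitochondrial DNA, at 5.77 and 7.89 FPKM.

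The mRNAs that these ribosomes translate did not follow one direction. Of 13 mitochondrially encoded mRNAs, 7 were lower and 6 higher in TAG/TAG, with a median log2 difference of -0.11. Past 1.5-fold were 3 each way (23.1%), close to the 19.4% of all genes that were lower and the 22.8% that were higher. The highest was mt-Cytb at 4082 and 8321 FPKM. The lowest was mt-Nd3 at 314 FPKM in TAG/+ and 17.9 FPKM in TAG/TAG (1193 and 73 reads).

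A pair of other nuclear gene groups were set beside the members. Cytosolic ribosomal protein mRNAs were taken as symbols beginning with Rpl or Rps and a digit, without Rps6k, and their P and SA relatives. This pattern also takes in a few related symbols, such as Rpl7l1 and Rps19bp1. The group had a median log2 difference of -0.94, and 67 of 83 (80.7%) were over 1.5-fold lower in TAG/TAG, against 19.4% of all genes. Subunits of oxidative phosphorylation encoded in the nucleus had a median of -0.35. Over 1.5-fold lower were 25 of 74 (33.8%) and over 1.5-fold higher 3 (4.05%), against 19.4% and 22.8% of all genes. Members thus had the smallest median difference of these 3 groups, and no test between groups was made. In level they were the lowest of the 3, against medians of 363 and 183 FPKM for cytosolic ribosomal proteins and 84.7 and 65.1 FPKM for oxidative phosphorylation subunits in TAG/+ and TAG/TAG.

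**Figure D3:**
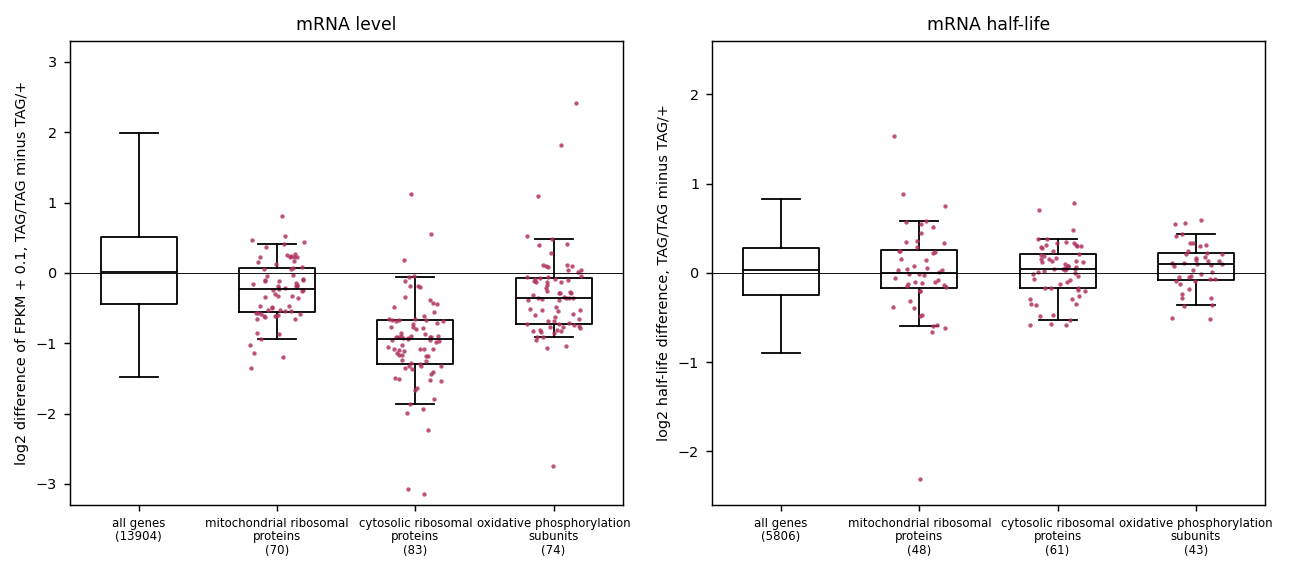
Log2 differences between the lines, TAG/TAG minus TAG/+, in level (left) and half-life (right) for all genes, members, cytosolic ribosomal proteins and oxidative phosphorylation subunits, with the number of genes in brackets. Boxes span the quartiles, whiskers the central 90% and dots are genes. In level the medians are 0.0089, -0.22, -0.94 and -0.35, and in half-life every median lies near 0. All genes are drawn as a box without dots, and 458 of them and 1 cytosolic gene lie beyond the left axis and 7 of all transcripts beyond the right.

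Members were also more long-lived than the typical transcript. The median half-life was 295 min in TAG/+ and 284 min in TAG/TAG for 48 members, against 224 and 226 min for all transcripts. The middle of the members reached from 228 to 365 min in TAG/+ and from 221 to 377 min in TAG/TAG. Of 48, 32 members (66.7%) had a half-life above the median of all transcripts in both lines, against a background of 39.8%. Another 7 were below it in both and 9 were above it in 1 line. Subunits did not stand apart, at 297 and 282 min for 32 large subunit mRNAs and 295 and 284 min for 16 small subunit mRNAs. Members with a bacterial counterpart had medians of 319 and 307 min, against 278 and 258 min for those without.

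**Figure D4:**
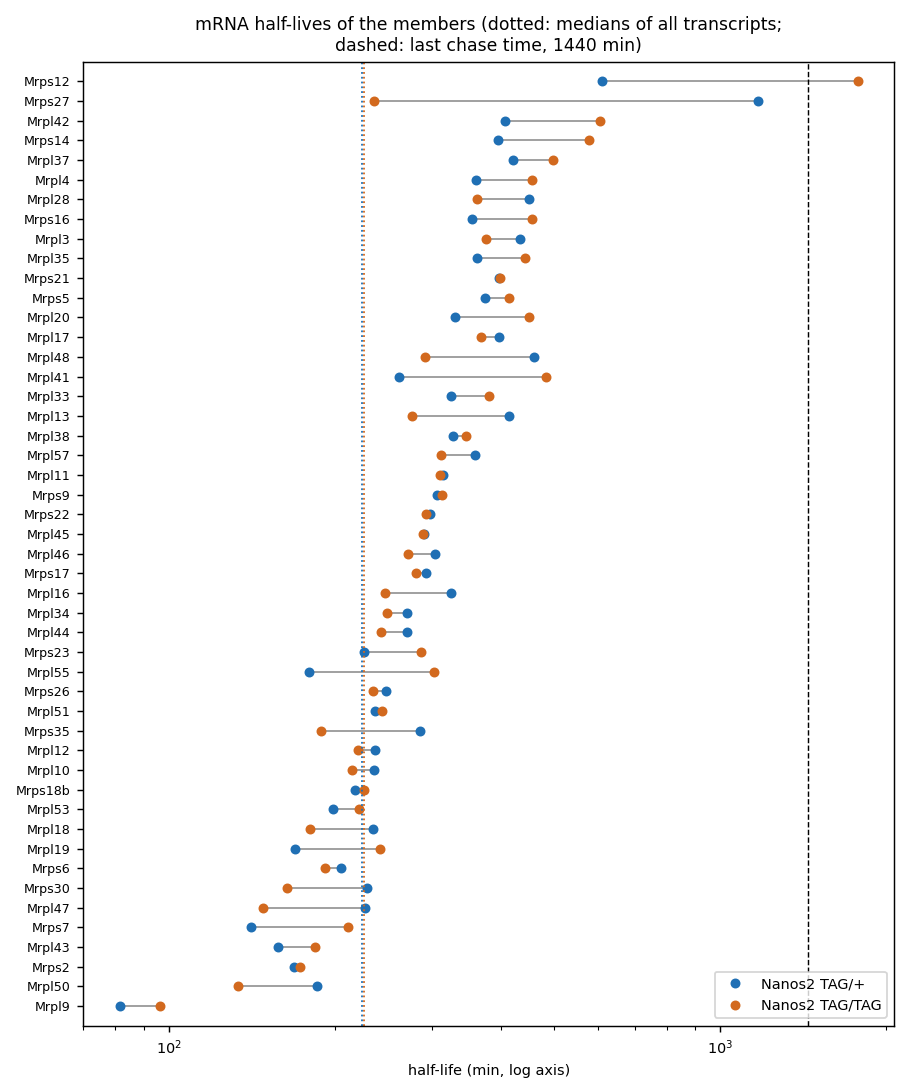
Half-life (min, log axis) of 48 members in TAG/+ (blue) and TAG/TAG (orange), ordered by the mean of both lines. Dotted lines mark the medians of all transcripts (224 and 226 min) and the dashed line the last chase time of 1440 min, which the TAG/TAG value of Mrps12 exceeds.

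The longest half-lives by the mean of both lines belonged to Mrps12, Mrps27, Mrpl42, Mrps14 and Mrpl37. Mrpl42 was at 408 min in TAG/+ and 604 min in TAG/TAG, Mrps14 at 396 and 577 min and Mrpl37 at 420 and 497 min. In these 3 both lines placed the mRNA well above the typical transcript. For the first 2 the lines were far apart. Mrps12 was at 611 min in TAG/+ and 1772 min in TAG/TAG, the latter past the last chase time and so an extrapolation of the fit. Mrps27, a pentatricopeptide repeat protein of the small subunit, was at 1170.4 min in TAG/+ and 236 min in TAG/TAG.

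The shortest half-lives belonged to Mrpl9 (81.5 min in TAG/+ and 96.3 min in TAG/TAG), Mrpl50 (185 and 133 min), Mrps2 (169 and 173 min), Mrpl43 (158 and 184 min) and Mrps7 (141 and 211 min). Mrpl9 was the only one with under 100 min in both lines, and it was also among the 5 least abundant members. Among members of special position, Mrpl3 had 432 and 376 min, Mrps16 had 355 and 456 min, Mrpl45 had 290.5 and 289 min and Mrpl12 had 236 and 220.2 min. Mrpl10 had 236 and 215 min, Mrps30 had 228 and 164 min, Mrps22 had 298 and 293 min, Mrpl44 had 269.9 and 243 min and Mrps18b had 217 and 226 min. Of the mRNAs with a half-life only, Mrpl11 had 314 and 310.3 min, Mrpl16 had 324 and 247 min, Mrpl28 had 449 and 362 min and Mrps6 had 205 and 192 min.

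Half-lives differed little between lines. The median log2 difference, TAG/TAG minus TAG/+, was -0.00073 for members and 0.037 for all transcripts, and 24 members were longer and 24 shorter in TAG/TAG. The half-life was over 1.5-fold shorter in TAG/TAG for 4 of 48 members (8.33%, against 10.7% of all transcripts) and over 1.5-fold longer for 3 (6.25%, against 10%). Both shares were close to the background. With at least 5 FPKM in both lines, 10% of 40 members were over 1.5-fold shorter, against 9.92% of such transcripts. In the other direction 7.5% were over 1.5-fold longer, against 9.33%. The 5 largest differences downward were Mrps27 (log2 difference -2.31), Mrpl48 (459 and 291 min, -0.66), Mrpl47 (227 and 148 min, -0.61), Mrps35 (285 and 189 min, -0.60) and Mrpl13 (414 and 276 min, -0.58). Upward they were Mrps12 (1.54), Mrpl41 (262 and 483 min, 0.88), Mrpl55 (179.8 and 303 min, 0.75), Mrps7 (0.58) and Mrpl42 (0.57). The half-lives have no error, so none of these differences can be set against a replicate spread.

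For comparison, cytosolic ribosomal protein mRNAs had medians of 595 and 605 min and oxidative phosphorylation subunits 502 and 520 min, in TAG/+ and TAG/TAG. Of these, 60 of 61 and 42 of 43 were above the median of all transcripts in both lines. The exception among the 61 was Rps19bp1, one of the related symbols, at 135 and 159 min. Members lay between these groups and the typical transcript. The mRNAs of assembly factors were shorter-lived, with medians of 139.7 and 185 min for 9 genes, from Mrm1 at 82.4 min to Rbfa at 311 min in TAG/+. Of the other mitoribosomal proteins, Dap3 had 276 and 264 min and Aurkaip1 had 294 and 534 min.

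Levels and half-lives were only loosely related. Across the 43 members with both values the Spearman correlation of FPKM with half-life was 0.36 in TAG/+ and 0.32 in TAG/TAG, against 0.51 and 0.45 across 5152 genes, where the points of a panel share 1 library and 1 fit per line. The correlation of the difference in level with the difference in half-life was 0.22 for members and 0.0038 for all. Mrpl48 was the one member over 1.5-fold lower in level and over 1.5-fold shorter in half-life. A further 5 members (11.6%) were past the limit in level only, 6 (13.95%) in half-life only and 31 (72.1%) in neither. Over all 5152 genes with both values, 1.57% were past both limits in the direction of Mrpl48, 19.2% past the limit in level only, 14.8% in half-life only and 59.8% in neither. Mrps27, with the largest difference in half-life, had 39.6 and 27.02 FPKM, a log2 difference of -0.55, and Mrps12, with the largest in the other direction, had a level difference of 0.15. Many members with a large level difference could not be compared, since Mrpl15, Mrps18c, Mrps33, Mrpl52 and Mrpl58 had no half-life. The 27 members without a half-life had a median log2 level difference of -0.35, against -0.18 for the 43 with one. Over 1.5-fold lower in level were 8 of these 27 (29.6%) and 6 of the 43 (13.95%), against 19.4% of all genes.

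**Figure D5:**
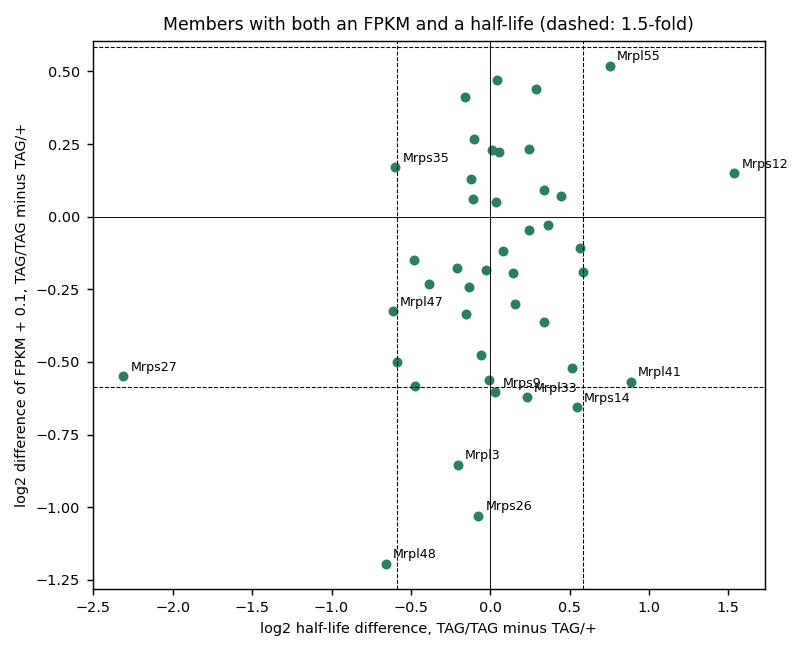
Log2 difference in half-life (x axis) against log2 difference in FPKM + 0.1 (y axis), TAG/TAG minus TAG/+, for 43 members with both values, with dashed lines at 1.5-fold and names for those past a line. Mrpl48 is the one member past both lines, and 31 members lie inside all of them.

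Members had short mRNAs with short 3′ ends. The median principal transcript was 1316 bases long, against 3053 bases for protein-coding genes with a level, and the median 3′ untranslated region was 327 bases against 1049 bases. AUGAAAU with its variant AUGAAUU and also AUUAAAU with its variant AUUAAUU, the spellings of the sequence that the study linked to NANOS2, occurred in the 3′ untranslated region of 22 of 75 members (29.3%), against 38.6% of 12994 genes. Per 1000 bases there were 0.349 matches in members and 0.493 in all genes. The median log2 half-life difference was 0.05 for 17 members with a match and -0.01 for 31 without, and the median log2 difference in level was -0.30 for 21 with and -0.19 for 49 without. Matches are letters in an annotated sequence and not sites of binding. AUUUA was found in 53.3% of members and 67.5% of all, and the Pumilio motif UGUANAUA in 13.3% and 25.4%. The sites of Mrpl48, of Mrpl3 and of Mrpl41 follow, with the match in capitals, since these are members with a large difference between lines. They lie on the GRCm38 annotation at chr7:100546595-100546621 for Mrpl48, at chr9:105079158-105079184, chr9:105079227-105079253 and chr9:105079616-105079642 for Mrpl3, and at chr2:24974126-24974152 for Mrpl41.
Mrpl48: uuaaaaaagaAUGAAUUcuuuagaaua
Mrpl3, first: uucucuauagAUGAAAUcucccucaug
Mrpl3, middle: gggaauuuccAUUAAUUuuccaucugc
Mrpl3, last: gaagaagagaAUGAAAUugacaguugu
Mrpl41: gcgcacuucuAUUAAAUgccuuuagug
No match was present in the 3′ untranslated region of the principal transcript for Mrps12, Mrps27, Mrpl15, Mrps18c, Mrps26 or Mrpl58. The same held for Mrpl52, Mrps33, Mrpl55, Mrpl21, Mrps7, Mrpl42, Mrpl47 and Mrpl13. Among the other members named above for a large difference, Mrps35, Mrpl35 and Mrpl46 had 1 match each and Mrpl51 had 3, which are not printed.

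Many members shared a start region with a gene on the opposite strand. A protein-coding neighbour began within 1000 bases upstream on the other strand for 20 of 75 members (26.7%), against 10.3% of 12579 protein-coding genes with a level. One such pair consisted of 2 members, Mrps11 and Mrpl46, whose principal transcripts began 30 bases apart. Mrps11 was at 58.6 FPKM in TAG/+ and 69.5 FPKM in TAG/TAG and Mrpl46 at 2.603 and 3.49 FPKM, so both were higher in TAG/TAG but more than 10-fold apart in level. Mrps12 began 232 bases from Sars2, the mitochondrial seryl-tRNA synthetase, which was at 47.6 and 77.8 FPKM. Mrps27 began 81 bases from Ptcd2, at 18.5 and 15.3 FPKM, and the half-life of Ptcd2 was 249 and 218 min, unlike the wide difference of Mrps27. Mrps18c began 29 bases from Helq, a DNA helicase, at 24.9 and 19.3 FPKM, and Mrpl43 began 116 bases from Twnk, the mitochondrial DNA helicase, which had a half-life of 221 and 157 min.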

How the data were processed

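FPKM values were deposited by the authors as 1 column per RNA-seq library; per the labels kallisto and DESeq2 were used, with versions, genome build and strand setting not given in the sources used here. Half-lives in minutes were deposited by the authors in 1 table per line, fitted to SLAM-seq with SlamDunk counts and first-order decay, pooled over the technical replicates. CRAC libraries were not analysed here.

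Members, lists and limits were chosen with earlier results of these data known. FPKM multiplied by the mean length of a gene's GENCODE M21 transcripts and a library constant gave whole reads, within 0.01 read, for 99.9% of 13904 genes. The constants were 10908790 for TAG/+ and 11738620 for TAG/TAG. Reads gave exact Poisson intervals for levels and Clopper-Pearson intervals for ratios at 95%; whether the authors rounded estimated counts is not known, and both cover counting error only. Log2 differences used a pseudocount of 0.1 FPKM, and 1.5-fold was the limit; half-lives were used as deposited. With 1 value per line no p-value was computed. Named members were the 5 highest and lowest in level and half-life, the 6 (level) or 5 (half-life) largest differences each way among those with at least 1 FPKM in both lines, the S18 paralogs, members of special position and those missing a level. Promoters came from RefSeq (GRCm38.p6) and transcripts from GENCODE; 3′ untranslated regions were those of principal transcripts. Python 3.11.15, pandas, numpy and scipy were used, and the calculations were tested on simulated data. The simulation drew independent Poisson reads with the same transcript lengths. It therefore checks the arithmetic and not whether the intervals suit these libraries. The alternatives were another pseudocount, a level filter, centring, a 2-fold limit, half-lives up to 540 min, the mean, and, added after seeing the data, principal transcript lengths, unique members and members without exon overlap.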

Additional observations from a re-analysis of the deposited data

How the results depend on the processing

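Each alternative value was held against a limit. For a median this was its 95% interval, taken from the ordered values of the members, and for a count 1.5 times the reported count. The interval covers the spread over members and not between cultures. Of 40 alternative values for the medians and counts of the members, 34 stayed within these limits. Those that did not came from a 2-fold limit, which left 4 members lower and 0 higher in level and 1 shorter (Mrps27) and 1 longer (Mrps12) in half-life in TAG/TAG; from the mean in place of the median, which gave 330.2 min for the half-life in TAG/TAG, with the 1772 min of Mrps12 in it; and from principal transcript lengths, which gave 18.8 FPKM as the median level in TAG/TAG. The smaller counts follow from the stricter limit and the lower FPKM from the longer transcripts. The median log2 difference in level ranged from -0.23 to -0.19 over its 5 alternatives. The median log2 half-life difference ranged from -0.04 to 0.03 and changed sign, so it had no direction. Without 7 members under 80% unique 50-base windows, 11 were over 1.5-fold lower in level, and 12 without members whose exons overlap another gene by over 10%. Both of these sets were chosen after seeing the data. No paired analysis was possible because no result comes from a test and each line has 1 value per gene. What limits these results is 1 library and 1 fitted half-life per line: culture, line and genotype vary together, and no half-life has an error.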

Other observations

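Some values belong to no comparison above. Exons of several members overlap those of other genes in the annotation: 88.0% of the exon bases of Mrpl53 overlap Ccdc142os or Gm42688 on the same strand, and 69.8% of those of Mrps25 overlap Nr2c2 on the opposite strand. Of the exon bases of Mrps34, 36.97% overlap on the same and 63.4% on the opposite strand with Mapk8ip3 or Nme3. How reads in these regions were assigned is not given in the sources used here.

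Among pseudogene symbols left out of the members, Mrpl23-ps1 was at 76.0 FPKM in TAG/+ and 47.6 FPKM in TAG/TAG (481 and 324 reads), above Mrpl23 itself at 5.11 and 3.22 FPKM, and 40.7% of its 50-base windows were unique. Mrpl48-ps was at 3.75 and 1.47 FPKM, on 26 and 11 reads. Mrps36-ps1 was listed at 0 in TAG/+ and at 10.3 FPKM in TAG/TAG, on 37 reads.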
